A study of Anableps anableps with 4 samples.

Results

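Fast and slow muscle were compared within 1 tissue section, the stage 4 head of the four-eyed fish Anableps anableps. The section was laid on a Visium slide, an assay in which barcoded spots each capture poly(A) RNA from the tissue lying over them, so that a spot can hold several cells of different types. Spots with at least 100 UMIs (unique molecular identifiers, each counted as 1 captured transcript) were chosen by the UMI counts of 5 contractile genes. F was the summed UMI count of the fast muscle genes mybpc2b, which encodes fast myosin-binding protein C, and tnnt3a, which encodes fast troponin T. S was the summed UMI count of TNNT1 and tnnt2b, both troponin T genes, and MYL2, a regulatory myosin light chain gene. Of 1135 spots with 100 UMIs, 259 (22.8%) had F+S of 10 or more, and of these 215 were fast, with S/(F+S) of 0.25 or less, 34 were slow, with S/(F+S) of 0.5 or more, and 10 lay between. The fast and slow spots, 249 in all, were chosen among 4695 spots in the 4 sections of the series.

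The study profiled sections of fresh frozen heads and eyes cut at 10 µm, and the labels placed every section in batch 1. The stage 4 head was 1 section, another capture area, called the mixed section here, took both an eye at stage 5 and a head at stage 3, and the adult eye had 2 sections. No strain, sex or treatment was given, nor the number of animals. Each group of spots came from 1 section, so spots are not replicates, no difference was tested, and every interval below covers counting error only.

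Skeletal muscle fibres of fish, as of other vertebrates, come in fast and slow kinds that carry different versions of the same machine. Thick filaments are built from myosin heavy chains with their light chains, and on the thin filament calcium binds troponin C, which shifts troponin I, troponin T and tropomyosin and lets myosin bind actin. Fast fibres use their own set of these proteins, run mainly on glycolysis and the creatine kinase buffer, and hold parvalbumin, a soluble protein that binds calcium and speeds relaxation. Slow fibres contract for long periods on energy from mitochondria. Calcium is released from the sarcoplasmic reticulum, where calsequestrin stores it, and is pumped back by SERCA pumps.

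The section held 4271990 UMIs. Fast spots had 1965126 UMIs in sum, with a median of 7269 per spot and a range of 679 to 42241, against 195261 UMIs in slow spots, with a median of 5663 and a range of 2171 to 9752. Fast spots held 46.0% of the UMIs of the section and slow spots held 4.57%. A median of 883 genes was detected per fast spot and 942 per slow spot. Of its barcodes, between 95 and 790 also occurred in another section, because Visium slides share one set of spot barcodes.

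The classes were set apart by the values that chose them, which are given only as a description. Levels are in CPM, the counts per 1000000 UMIs of the class. Among the fast genes of the rule, tnnt3a had 30474 UMIs in fast spots and 262 in slow spots, that is 15507 and 1342 CPM, and mybpc2b had 671 CPM in fast spots and 102 CPM in slow spots. Among the slow genes, MYL2 had 78.4 CPM in fast spots and 2945 in slow spots, tnnt2b had 74.3 and 1808, and TNNT1 had 23.9 and 369. Every slow spot held at least 1 UMI of tnnt2b and at least 4 of MYL2, while TNNT1 was present in 17 of the 34.

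**Figure D1:**
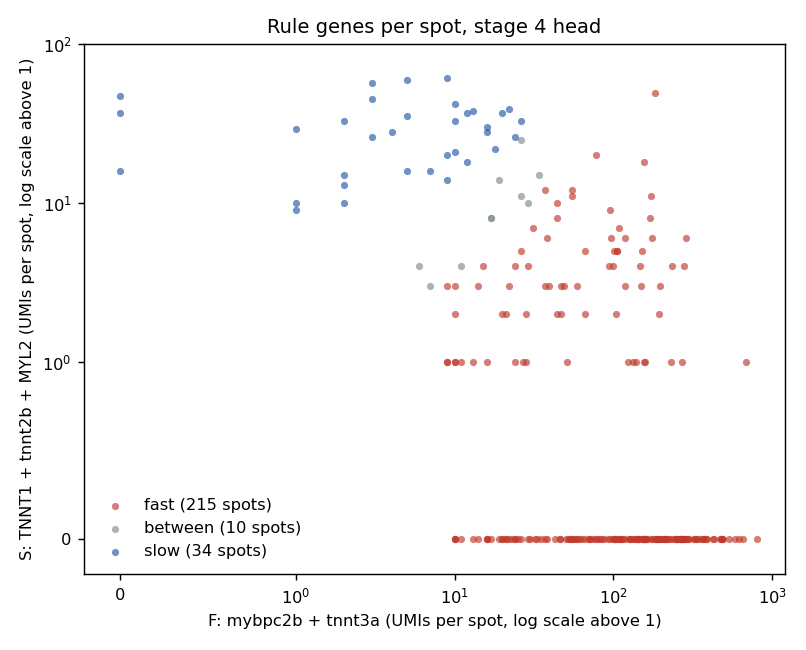
Each point is 1 spot of the stage 4 head with F+S of 10 or more, placed by its UMIs of mybpc2b and tnnt3a (F, horizontal) and of TNNT1, tnnt2b and MYL2 (S, vertical), both on axes that are logarithmic above 1. The 215 fast spots lie along the bottom and right, 143 of them with S at 0, the 34 slow spots lie at the upper left, and the 10 spots between separate them.

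Most spots lay far from the thresholds. S/(F+S) was exactly 0 in 143 fast spots and under 0.1 in 194, and it was 0.9 or more in 10 slow spots. Just inside the fast threshold, 14 spots had a share of 0.15 to 0.25, and just outside it 7 spots had a share of 0.256 to 0.32. Just inside the slow threshold, 4 spots had a share of 0.52 to 0.6, and just outside it 3 spots had a share of 0.4 to 0.49. At the minimum of F+S, 16 spots had 10 to 12 UMIs and were kept, and 18 spots with 7 to 9 were not.

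Over the whole transcriptome, 1272 genes outside the rule had at least 50 UMIs over both classes. A gene was counted as different when its CPM differed at least 2-fold and the exact 95% Poisson intervals of the classes did not overlap. By that measure 49 genes were higher in fast spots, which is 3.85% of those counted, and 296 were higher in slow spots, 23.3%. The median gene stood at a log2 CPM ratio, fast over slow, of -0.67. CPM values sum to the same total in each class. Relative to that median gene, 134 genes were higher in fast spots, 10.5%, and 72 were higher in slow spots, 5.66%. The same genes were part of the material that the classes were cut from, so these shares describe 2 sets of spots and carry no test. Scaling set some directions: genes between -0.67 and 0 lay on the fast side relative to the median gene, and genes with a ratio under 2.19 lay on the slow side per UMI of the shared sarcomere list, since that list itself stood at 2.19. Fewer fibres in a spot and less RNA per fibre cannot be told apart in these counts.

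The 10 genes that stood highest in fast spots were led by calcium buffering and thin filament genes. The parvalbumin gene pvalb4 was the most abundant of them: per spot its lowest, median and highest levels were 9472, 86114 and 182115 CPM in fast spots, against 970.1, 2579.9 and 18301 CPM in slow spots. Only 6 of the 34 slow spots exceeded the lowest fast spot. Summed over the classes, pvalb4 stood at 97439.6 CPM in fast spots and 5080.4 in slow spots, a 19.2-fold ratio. A second parvalbumin gene, pvalb1, had 2179.5 CPM in fast spots and 51.2 in slow spots, 42.6-fold. It was found in 180 of 215 fast spots and in 8 of 34 slow spots.

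The thin filament followed the same direction in 3 of its genes. The tropomyosin gene TPM1 (ENSABLG00000000526) had lowest, median and highest levels per spot of 1583, 10429 and 30571 CPM in fast spots, against 0, 675 and 2684 CPM in slow spots, and its summed ratio was 15.7-fold. For the fast troponin I gene tnni2b.2 these levels were 1718, 15512 and 29928 CPM in fast spots, against 0, 756 and 10606 CPM in slow spots, with a summed ratio of 10.9-fold. For one copy of the fast troponin C gene, TNNC2 (ENSABLG00000021108), they were 841, 9664 and 19359 CPM in fast spots, against 0, 706 and 7071 CPM in slow spots, with a summed ratio of 7.63-fold. No slow spot reached the fast median of any of these 3 genes, although 5 slow spots lay above the lowest fast spot for TPM1, 8 for tnni2b.2 and 15 for TNNC2.

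The remaining genes of this set were scarcer. The gene dhrs7cb, named after a dehydrogenase/reductase of the sarcoplasmic reticulum, had 348 CPM in fast spots and 30.7 in slow spots (683 and 6 UMIs). CACNG1, a subunit of the voltage-gated calcium channel of skeletal muscle, had 43.3 CPM in fast spots and 5.12 in slow spots, from 85 UMIs and 1 UMI. ANKRD9, si:ch73-367p23.2 and slc25a55b likewise had 131, 116 and 114 UMIs in fast spots and 1 UMI each in slow spots. With 1 UMI the ratio is loosely bounded: the 95% interval of the log2 ratio ran from 0.56 to 8.40 for CACNG1.

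The 10 genes that stood highest in slow spots were mostly thick filament and Z-disc genes. MYL3, an essential myosin light chain of slow and ventricular muscle in mammals, led with 62.6 CPM in fast spots and 1321 in slow spots, 21.1-fold higher in slow. Per spot its lowest, median and highest levels were 0, 0 and 1178 CPM in fast spots, against 0, 1171 and 4636 CPM in slow spots. A UMI of MYL3 was present in 47 of 215 fast spots and in 33 of 34 slow spots. FHL2, a LIM domain protein of the sarcomere, had 43.8 CPM in fast spots and 829.7 in slow spots, and actn2b, a Z-disc actinin gene, had 35.6 and 502. Both were found in most slow spots (31 and 30 of 34) and in few fast spots (49 and 36 of 215).

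The myosin genes of this set were more unevenly spread. The regulatory light chain gene myl2a had 579 CPM in fast spots and 7687 in slow spots, 13.3-fold higher in slow, with lowest, median and highest levels per spot of 0, 0 and 16797 CPM in fast spots and 0, 1370.2 and 32589.5 CPM in slow spots. The light chain gene myl13 had 287 CPM in fast spots and 3421 in slow spots. MYH7 (ENSABLG00000010686), a slow and cardiac myosin heavy chain gene, had 16.8 CPM in fast spots and 225 in slow spots, and it was found in 16 of 215 fast spots and 7 of 34 slow spots. These genes were therefore high in some slow spots and absent or low in others, as described further on.

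Outside the filaments, SLC25A5 (ENSABLG00000004037), an ADP/ATP carrier of the mitochondrial inner membrane, had 443 CPM in fast spots and 3406 in slow spots. No fast spot reached the slow median of 3028 CPM. A second copy of SLC25A5, ENSABLG00000017837, was not among these 10 genes. The SERCA gene ATP2A1 (ENSABLG00000002479) had 142 CPM in fast spots and 1444 in slow spots, and the calsequestrin gene CASQ2 had 16.8 and 138. HSPB11 had 12.2 CPM in fast spots and 133 in slow spots, from 24 and 26 UMIs. Among genes without a symbol, ENSABLG00000004138 had 7497 CPM in fast spots and 394 in slow spots, and ENSABLG00000018746 had 59.0 and 625. All 20 named genes kept their direction under every alternative in which they were recomputed, 340 values in all. They were chosen for the largest ratios, with log2 values of at least 2.93 in either direction. A change of scale, which moved log2 ratios by at most 2.19, therefore could not turn any of them.

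The contractile genes that the rule did not use are given as a description of the classes. A list of 21 fast contractile genes had 16 with enough UMIs, of which 10 were higher in fast spots, none was higher in slow spots and 6 were neither. The median log2 ratio of the 16 was 1.69, against -0.67 over all genes counted. Of all genes counted, 3.85% were higher in fast spots and 23.3% in slow spots. Summed, the list made 125873 CPM in fast spots and 44371 CPM in slow spots, so slow spots still held much fast contractile RNA. The direction of this sum turned when both classes were scaled to shared sarcomere genes (log2 ratio -0.68). With TPM1 left out of that scale the sum stayed on the fast side. A list of 15 slow contractile genes had 7 with enough UMIs, of which none was higher in fast spots and 6 were higher in slow spots. Its median log2 ratio was -2.57, and its sum was 3485 CPM in fast spots and 13188 CPM in slow spots, lower in fast spots under every alternative computed. Genes of both lists that passed the minimum only through the class where they are high were favoured to differ. These counts therefore describe the classes and cannot test the label.

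The troponin subunits did not move as 1 block. For troponin C, the TNNC2 copy ENSABLG00000021108 was 7.63-fold higher in fast spots, whereas the copy ENSABLG00000021103 was nearly level at 14385 CPM in fast spots and 16327 CPM in slow spots (log2 ratio -0.18). Per spot the second copy ran from 286 through a median of 10519 to 40622 CPM in fast spots, and from 1037 through 15653 to 30004 CPM in slow spots. It was the largest fast contractile transcript of the slow spots, at 36.8% of that list's UMIs there, while the light chain gene mylz3 led the list in fast spots with 28.2%. The slow and cardiac troponin C gene tnnc1b went the other way, with 1301 CPM in fast spots and 5664 CPM in slow spots. It was present in all 34 slow spots and in 185 of 215 fast spots.

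Troponin I and troponin T showed the same split among copies. Of the fast troponin I genes, tnni2b.2 differed 10.9-fold, tnni2a.2 had 956 CPM in fast spots and 896 in slow spots, and tnni2b.1 had 36.6 and 56.3, with counting intervals that overlapped for the last 2. The fast troponin T gene TNNT3, which the rule did not use, had 4530.5 CPM in fast spots and 4194 in slow spots, while its relative tnnt3a in the rule separated the classes. Copies of one gene can share reads when their sequences are close, and how the deposited counting divided such reads is not given in the sources used here.

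Tropomyosin was divided by gene. TPM1 had 2 copies above the minimum, both higher in fast spots, with log2 ratios of 3.97 (ENSABLG00000000526) and 2.41 (ENSABLG00000022374). TPM3, the slow tropomyosin gene of mammals, had 1281 CPM in fast spots and 4071 CPM in slow spots. TPM1 alone made 59.4% of the UMIs of the shared sarcomere list in fast spots, so that list, at 22026 CPM in fast spots and 4839.7 CPM in slow spots, is not a neutral measure of the amount of muscle.

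Among myosins, the light chain genes of the fast list were higher in fast spots per UMI of the class, though not per UMI of the shared sarcomere list. With TPM1 left out of that list, mylz3, MYLPF and MYL1 stayed on the fast side. mylz3 had 35469 CPM in fast spots and 8025 in slow spots, MYLPF, the fast regulatory light chain gene, had 29018 and 7385, and MYL1, the fast essential light chain gene, had 9090.0 and 3006. The heavy chain genes were scarce beside them, and their copies differed. The copy of myhb ENSABLG00000013333 had 166 CPM in fast spots and 71.7 in slow spots, and the copy ENSABLG00000018396 was level at 356 and 364. The copy ENSABLG00000011501 had 169 UMIs in fast spots and 0 in slow spots, at least 5.60-fold higher against a floor of 3 counts over the slow class. A second MYH7 copy, ENSABLG00000010841, had 73.3 CPM in fast spots and 435 in slow spots.

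The Z-disc proteins that anchor the thin filaments were likewise paired. The fast actinin gene actn3b had 895 CPM in fast spots and 261 in slow spots, opposite to actn2b. MYOZ1, which encodes the fast fibre protein myozenin, had 847 CPM in fast spots and 195 in slow spots, while its relative myoz1b had 231 and 338. The single gene of the slow list that differed neither way was myoz2a, with 693 CPM in fast spots and 604 in slow spots.

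**Figure D2:**
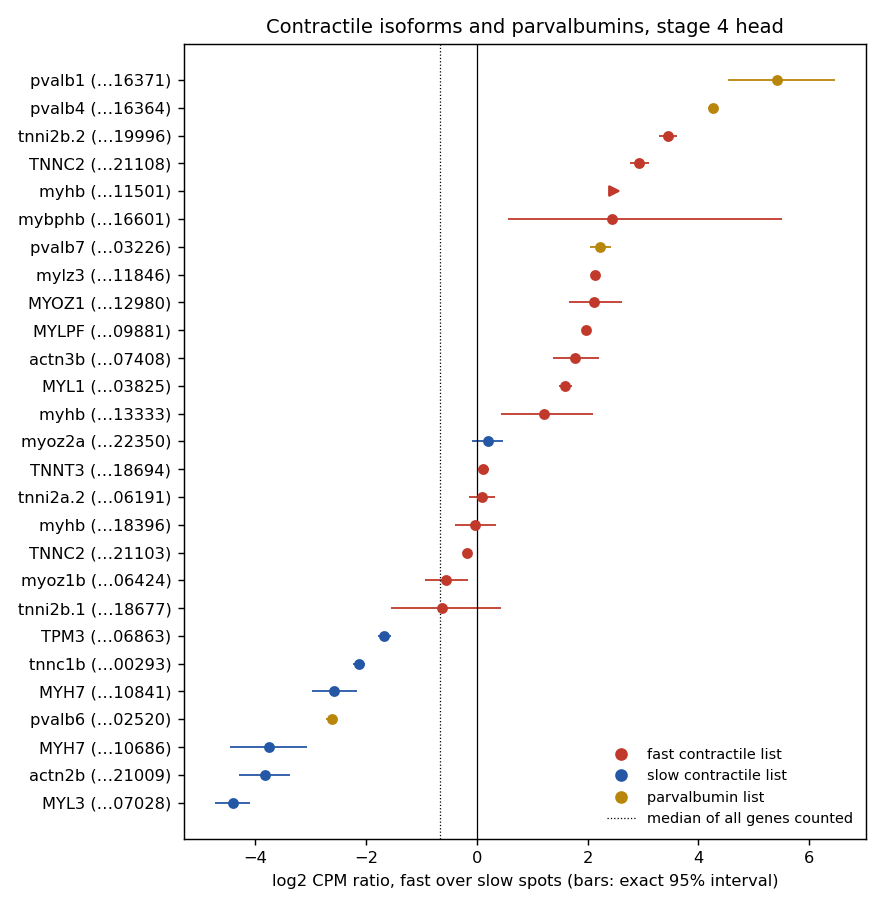
The log2 ratio of CPM, fast over slow spots of the stage 4 head, is shown for the members of the fast contractile, slow contractile and parvalbumin lists with at least 50 UMIs, with exact 95% counting intervals. The triangle is a lower bound for myhb ENSABLG00000011501, and the dotted line is the median of all genes counted, -0.67. Fast list genes run from tnni2b.2 at 3.45 down to tnni2b.1 at -0.62, and all slow list genes but myoz2a lie left of the dotted line.

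Parvalbumins held the largest share of RNA of any list that was higher in fast spots apart from the contractile genes. The 4 detected genes of the list made 106166 CPM in fast spots and 12921 CPM in slow spots, and pvalb4 was 91.8% of that in fast spots. The genes pvalb1, pvalb4 and pvalb7 (5466 CPM in fast spots and 1163 in slow spots), were higher in fast spots. The fourth, pvalb6, was 6.13-fold higher in slow spots, with 1081 CPM in fast spots and 6627 CPM in slow spots, and made 51.3% of the parvalbumin UMIs there. Its spread within the slow class was wide: the lowest, median and highest levels were 0, 1791 and 23887 CPM, and 20 of 34 slow spots held any.

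The calcium store of the sarcoplasmic reticulum differed by gene and not as a list. Of 13 calcium handling genes counted, 3 were higher in fast spots and 4 in slow spots, against 3.85% and 23.3% of all genes, so the slow count is near the background. The summed log2 ratio of -0.65 moved to 0.011 relative to the median gene and to 0.083 relative to ribosomal protein genes. Higher in fast spots were CACNG1, the calsequestrin gene casq1a (841 CPM in fast spots and 149 in slow spots) and the junctophilin gene jph2 (172 and 56.3), which joins the reticulum to the surface membrane. Higher in slow spots were ATP2A1, CASQ2, one copy of the sarcalumenin gene SRL (87.0 CPM in fast spots and 266 in slow spots) and the histidine-rich calcium-binding protein gene HRC (65.6 and 174). ATP2A1 carries the name of the pump that is typical of fast fibres in mammals, yet its counted copy was 10.1-fold higher in slow spots. No other gene with a SERCA symbol reached 50 UMIs in these spots. The other ATP2A1 copy, ENSABLG00000001216, had 17 UMIs in fast spots and 20 in slow spots. That is 8.65 CPM in fast spots and 102 CPM in slow spots, the same direction as the counted copy, with intervals apart.

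Many nuclear genes of mitochondrial respiration were higher in slow spots per UMI of the class, and few were relative to the median gene. Of 85 respiratory chain genes counted, none was higher in fast spots and 56 were higher in slow spots, against 3.85% and 23.3% of all genes counted, and 29 were neither. The median log2 ratio was -1.18 against -0.67 over all genes. Relative to the median gene, 0 of the 85 were counted as higher in fast spots and 8 as higher in slow spots, against 10.5% and 5.66% of all genes. The list made 24731 CPM in fast spots and 54655 CPM in slow spots, and 2 of 215 fast spots reached the slow median of 56030.3 CPM. COX5A, a subunit of cytochrome c oxidase, had 518 CPM in fast spots and 1757 in slow spots. COX4I2, another subunit of that complex, was level at 611 and 650.4.

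Genes of the citric acid cycle and fat oxidation had 9 members counted, none higher in fast spots and 6 higher in slow spots, against 3.85% and 23.3% of all genes. Among the 6 were IDH2 (488 CPM in fast spots and 1311 in slow spots), citrate synthase CS (78.9 and 179) and the fatty acid carrier FABP3 (171 and 409.7). Relative to the median gene, none of the 9 was counted in either direction. One copy of the oxygen store myoglobin, MB (ENSABLG00000002750), had 114 CPM in fast spots and 409.7 in slow spots. The other copy, ENSABLG00000017667, was counted in neither direction, with a log2 ratio of -0.62, near the median gene at -0.67.

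Glycolysis made 54418 CPM in fast spots and 30825 CPM in slow spots, a log2 ratio of 0.82 that turned to -1.37 per shared sarcomere UMI and to -0.22 when TPM1 was left out of that scale. Of 17 genes counted, 3 were higher in fast spots and 2 in slow spots, against 3.85% and 23.3% of all genes, and 12 were neither. On the scale of the median gene, 9 of the 17 were higher in fast spots and 0 in slow spots, against 10.5% and 5.66% of all genes. Aldolase aldoaa (23166 CPM in fast spots and 11129 in slow spots), enolase ENO3 (11284 and 5126) and one lactate dehydrogenase copy, ldha ENSABLG00000013526 (2597 and 789), were higher in fast spots. The other ldha copy, ENSABLG00000021021, had 353 CPM in fast spots and 1024 in slow spots. The glucose phosphate isomerase gene gpib was divided in the same way, with log2 ratios of 0.95 for ENSABLG00000007423 and -1.48 for ENSABLG00000006367.

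The phosphagen system, which buffers ATP during short bursts, was higher in fast spots in its cytosolic enzymes. That direction turned per UMI of the shared sarcomere list, but not when TPM1 was left out of that list. The creatine kinase gene CKM had 17973 CPM in fast spots and 7882 CPM in slow spots, its relative ckma had 1524 and 553, and adenylate kinase AK1 had 6491 and 2858. The mitochondrial creatine kinase gene CKMT2 had 737 CPM in fast spots and 947 in slow spots. Muscle chaperone genes had 6 members counted, none higher in fast spots and 4 higher in slow spots, against 3.85% and 23.3% of all genes. The 4 were led by HSPA8 (112 CPM in fast spots and 399 in slow spots). On the scale of the median gene, only 1 of the 6 was counted as higher in slow spots.

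Synapse and regulator genes were near the lower limit of detection. Of 12 neuromuscular junction genes 4 were counted, and 1 of them was higher in slow spots, a share near the 23.3% of all genes. It was CHRNA1, the alpha subunit of the acetylcholine receptor, with 29.0 CPM in fast spots and 123 in slow spots. The delta subunit gene CHRND had 73.3 and 66.6, and the gamma subunit gene CHRNG had 22.9 and 46.1. Of 26 myogenic and fibre type regulators 4 were counted, and none was higher in either class. A gene at 0 in slow spots needed 25.4 CPM in fast spots to be counted, and a gene at 0 in fast spots needed 256 CPM in slow spots, so regulators expressed at low levels could not be compared.

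Markers of other tissues moved with the classes, and their part in the results above was not tested. Blood was the largest of them: the globin list made 21126 CPM in fast spots, 80789 in slow spots and 92045 in the 876 spots with F+S under 10. The list did not hold the globin gene HBE1 and so understates globin RNA. HBE1 had 2864 UMIs in the slow spots with a pvalb6 UMI and 5525 in the slow spots without one. All 5 globin list genes counted were higher in slow spots, against 23.3% of all genes, and so they were relative to the median gene. Per spot the list ran from 71.0 through a median of 16611 to 257923 CPM in fast spots and from 2565 through 46892 to 266399 CPM in slow spots, so the classes overlapped widely. Spots with at most 50000 CPM of the globin list, HBE1 not included, were also taken alone, of which 19 were slow. Among them the slow contractile log2 ratio was -2.10 and the fast contractile ratio was 1.43, against -1.92 and 1.504 in all spots.

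Cartilage and bone genes had 7 members counted, 1 higher in fast spots and 5 higher in slow spots, against 3.85% and 23.3% of all genes. On the scale of the median gene, 1 and 3 of the 7 were counted. The list made 873 CPM in fast spots and 2346 CPM in slow spots. Connective tissue genes made 1814 CPM in fast spots and 3605 in slow spots, with 2 of 6 counted genes higher in slow spots, a share near the 23.3% of all genes. The tendon list made 45.8 CPM in fast spots and 174 in slow spots. Lens genes made 1268 CPM in fast spots and 1526 in slow spots, against 82717 in the spots with F+S under 10, and retina genes made 31.0 and 46.1 CPM. Of the 14 heart genes of the cardiac list, which included NPPA and MYL7, 13 were at 0 in both classes and MYH6 had 1 UMI in fast spots. In the other sections, MYH6 (ENSABLG00000015342) had 0 UMIs in fast spots and 12 in slow spots (239 CPM) of the mixed section, and the list was at 0 in both classes of the adult sections.

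Levels changed by degrees across the slow share. In bins of S/(F+S) from 0 to 0.1, 0.1 to 0.25, 0.25 to 0.5, 0.5 to 0.75 and 0.75 to 1, with 194, 21, 10, 13 and 21 spots, tnni2b.2 had 18785, 10216, 4374, 2939 and 671 CPM. The 2 bins from 0.25 to 0.75 are thin, with under 20 spots each. pvalb4 had 100896, 44303, 16736, 7395 and 3243 CPM, and TNNC2 ENSABLG00000021108 had 11750.0, 6933, 3537, 2789 and 478 CPM. All 3 genes were lower in each bin than in the one before it, and the steps continued inside the fast and slow classes.

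Genes of the slow side climbed mostly at the low end of the share. MYL3 had 38.5, 433, 685, 1331 and 1314 CPM over the bins, and myl2a had 372, 3758, 6428, 7349 and 7956 CPM. The level copy of TNNC2, ENSABLG00000021103, had 14035, 19773, 16051, 19616 and 13716 CPM, with no trend. pvalb6 was highest in a thin bin, with 875, 4241, 5306, 10705 and 3390.0 CPM. A spot can cover fibres of both kinds, so a middle value does not show that any single fibre holds both sets of transcripts.

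**Figure D3:**
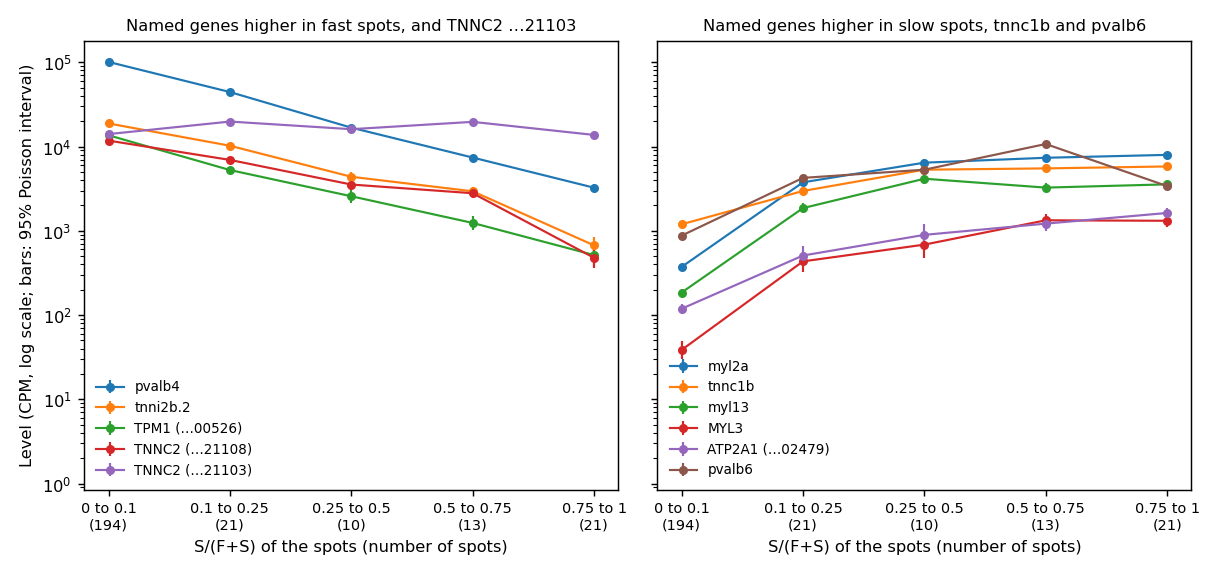
Each line is the level of 1 gene, in CPM on a logarithmic axis with exact 95% Poisson intervals, over bins of S/(F+S) with the number of spots in brackets. On the left, genes higher in fast spots are lower in each bin than in the one before while TNNC2 ENSABLG00000021103 stays between 13716 and 19773 CPM. On the right, genes higher in slow spots climb mainly over the first bins, and pvalb6 peaks at 10705 CPM in the fourth.

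The slow spots divided into 2 sets by their light chain and parvalbumin genes. Across the 34 spots, the ranks of myl2a and myl13 went together (Spearman correlation 0.87), those of pvalb6 went with TNNC2 ENSABLG00000021103 (0.87), and the pairs ran against each other, with -0.68 between myl2a and pvalb6 and -0.74 between myl13 and pvalb6. These correlations describe 34 spots of 1 section that share a denominator, with no test. Among the 20 slow spots that held a pvalb6 UMI, the lowest, median and highest myl2a levels were 0, 964 and 2130 CPM, against 401, 17257 and 32590 CPM among the 14 that held none. Of those 14, 13 lay above every spot with pvalb6, so the sets barely overlapped. This division was chosen after the values were seen.

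**Figure D4:**
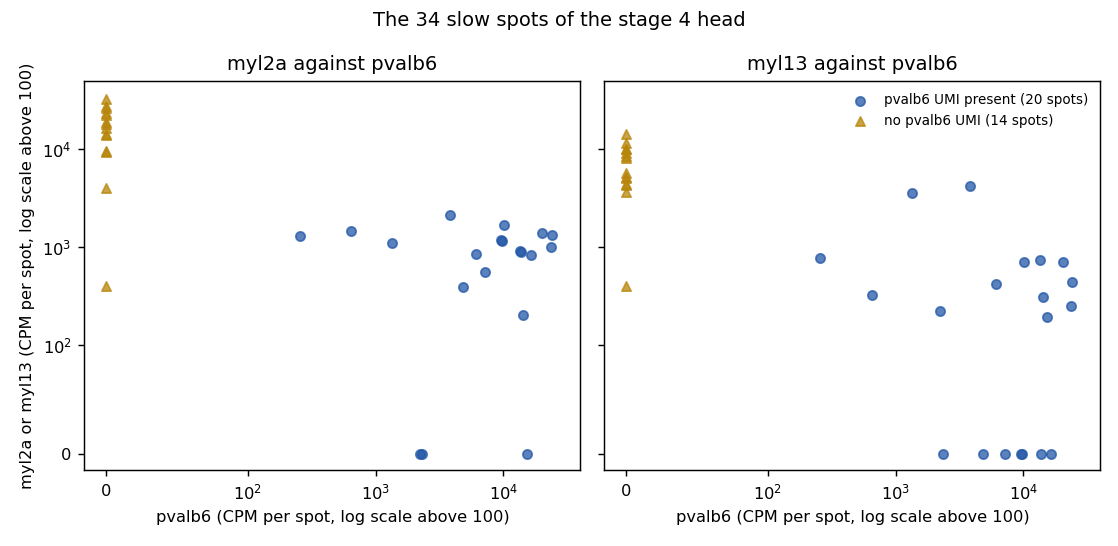
Each point is 1 of the 34 slow spots, placed by its pvalb6 level (horizontal) and its level of myl2a (left) or myl13 (right), in CPM on axes that are logarithmic above 100. The 20 spots with a pvalb6 UMI stay at or under 2130 CPM of myl2a, and 13 of the 14 spots without one lie above that level.

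Several other genes divided along the same line. In the slow spots with pvalb6, the embryonic myosin heavy chain gene MYH3 had 1068 CPM, against 38.4 in the slow spots without it (125 and 3 UMIs), and the tropomyosin gene tpma had 444 against 25.6. Of the rule genes, TNNT1 had 72 UMIs in the spots with pvalb6 and 0 in those without, whereas MYL2 had 2980.5 and 2891 CPM and tnnt2b had 1947 and 1599. The fast troponin genes TNNT3 (5508 and 2226 CPM) and TNNC2 ENSABLG00000021103 (23007 and 6319.9 CPM) were higher in the spots with pvalb6. Not every gene of the fast side went that way: pvalb7 had 376 CPM in the spots with pvalb6 and 2341 in those without. Of the fast rule genes, tnnt3a had 1631 and 908 CPM, and mybpc2b had 59.8 and 166 with overlapping intervals.

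Other genes were higher in the slow spots without pvalb6, though not every slow myosin gene, since MYL2 and MYH7 ENSABLG00000007034 (16 UMIs in each set) had overlapping intervals. MYH7 ENSABLG00000010686 had 1 UMI in the spots with pvalb6 and 43 in those without, MYH7 ENSABLG00000010841 had 102 and 934 CPM, and the troponin T gene tnnt2e had 34.2 and 742. The slow side genes MYL3, tnnc1b, TPM3 and actn2b differed by smaller ratios, in the same direction. MYL3 had 1127 CPM in the spots with pvalb6 and 1612 in those without, and tnnc1b had 4313 and 7689. TPM3 had 2408 and 6563 CPM, and actn2b had 299 and 806. Other genes of the slow side went the opposite way. ATP2A1 ENSABLG00000002479 had 1802 CPM in the spots with pvalb6 and 908 in those without. SLC25A5 ENSABLG00000004037 had 4270 and 2111 CPM, and MB ENSABLG00000002750 had 581 and 154. FHL2 had 948 and 652 CPM, with overlapping intervals.

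Markers of other tissues also differed between the 2 sets, and their part in the division was not tested. The spots with pvalb6 held more transcripts of cartilage (922 CPM of COL2A1, against 128 in the spots without) and fewer of the globin list (55143 CPM, against 119208). HBE1, a globin gene outside that list, had 24459 CPM in the spots with pvalb6 and 70683 in those without. APOD, a secreted lipid carrier, had 93.9 CPM in the spots with pvalb6 and 5143 in those without. Spot positions were not used, so whether the 2 sets lie in different muscles is not known from these counts.

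The same rule was applied in the other sections. It gave 24 fast and 22 slow spots in the mixed section, 10 and 22 in the first adult eye section and 17 and 19 in the second, so these values rest on far fewer UMIs. Of the 20 named genes, those with at least 20 UMIs over both classes kept the stage 4 direction in 39 of 39 cases. They were 5 of the fast and 8 of the slow genes in the mixed section, 6 and 6 in the first adult section, and 6 and 8 in the second. Stages and organs differ between sections, so the folds are set side by side only. Spots of the head and of the eye in the mixed section were not told apart, so its classes can differ in organ and stage.

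For pvalb4, the mixed section had 126531 CPM in fast spots and 2465 in slow spots, the first adult section had 25987 and 5643, and the second had 20911 and 4541. Its level in fast spots was thus lower in the adult sections than in the younger ones. ATP2A1 ENSABLG00000002479, the pump gene that was higher in slow spots, had 416 CPM in fast spots and 2624 in slow spots of the mixed section, 685 and 4328 in the first adult section and 1831 and 5504 in the second. FHL2 was also higher in slow spots of every section, with log2 ratios of -4.24, -4.31, -2.65 and -1.99 from the stage 4 head to the second adult section. The level copy of TNNC2 stood at -0.68, 0.26 and 0.75 in the other sections, on both sides of 0.

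By list, fast contractile genes had log2 ratios of 1.62, 0.69 and 0.88 in the mixed section and the adult sections, and slow contractile genes had -2.27, -1.78 and -2.15. Metabolic lists were less even. Glycolysis stood at -0.64, -0.19 and 0.63, and the respiratory chain at -1.43, -0.59 and -0.25. The globin list, higher in slow spots of the stage 4 head, had -2.61, -1.54 and 0.98. Its part in the other differences was not tested.

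**Figure D5:**
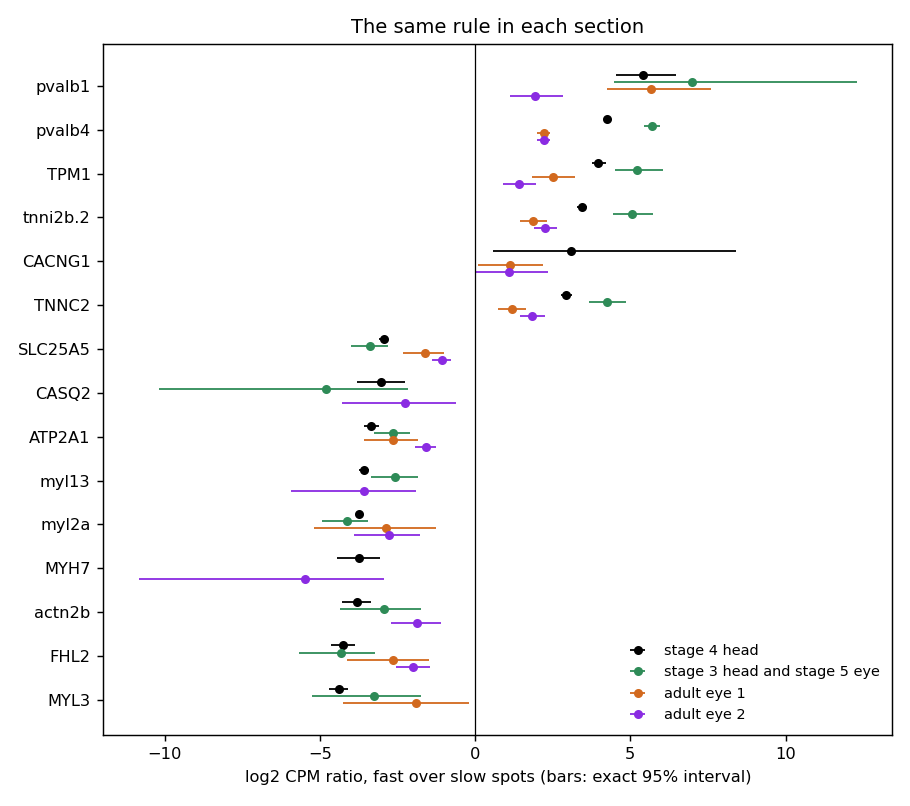
The log2 ratio of CPM, fast over slow spots, is drawn with exact 95% intervals for each section in which a named gene had at least 20 UMIs over both classes. Genes that reached this only in the stage 4 head are left out. All points of genes higher in fast spots of the stage 4 head lie right of 0, and all points of genes higher in its slow spots lie left of 0. One of the 39 cases outside the stage 4 head is not drawn: actn2b in the first adult section, with 0 UMIs in fast spots and 35 in slow spots.

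The 2 sets of slow spots were looked for in the same way. In the mixed section, 11 slow spots held a pvalb6 UMI and 11 did not, and myl2a had 988 CPM in those with pvalb6 and 7300.4 CPM in those without. There MYH3 had 2018 CPM in the spots with pvalb6 and 231 in those without, as in the stage 4 head, while TNNT1 had 782 and 1383, the other way round. In the first adult section 3 of 22 slow spots held pvalb6, with 4 UMIs in all, and in the second none of 19 did, at 0 of 50874 UMIs, which at the floor of 3 counts allows up to 59.0 CPM (exact 95% upper limit 72.5 CPM).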

How the data were processed

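The deposited files held raw UMI counts per gene and spot in matrix format for each section. Per the file headers they were made with Space Ranger 3.1.3. The genome build is not given in the sources used here. Gene symbols came from the deposited feature lists: 17517 of 22934 gene IDs had one.

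Sections were grouped by their titles. For each class of spots, counts were summed over spots and given as CPM of the class total, with exact Poisson 95% intervals for levels and exact conditional intervals for log2 ratios. The floor for a class at 0 was 3 counts (1.53 CPM in fast spots and 15.4 CPM in slow spots). Genes needed 50 UMIs over both classes, and the 5 rule genes were left out. Named were the 10 genes with a symbol and the largest ratio in each direction, and members of the gene lists with at least 50 UMIs. The members and lists were chosen with earlier results of these data known. The genes that set pvalb6 spots apart were chosen after their values were seen. No doublet caller was run on spots, and spot positions were not used. Intervals cover counting error only. The steps were tested on simulated data. Python 3.11.15, numpy 2.4.6, pandas 2.3.3, scipy 1.17.1 and matplotlib 3.10.9 were used.

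Alternatives changed the thresholds of the rule, its genes, the scaling, the totals, the spots and the gene minimum, 20 in all.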

Additional observations from a re-analysis of the deposited data

Results flagged for a closer look

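The mitochondrial creatine kinase gene CKMT2 (ENSABLG00000022659) differed in direction between the stage 4 head and the adult eye. Its log2 ratio, fast over slow, was -0.36 in the stage 4 head (0.30 relative to the median gene) and -1.02 in the mixed section, and it was 0.93 in the first adult section and 0.64 in the second. The 95% counting intervals excluded 0 in all 4 sections.

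One copy of the myosin heavy chain gene myhb (ENSABLG00000013333) did the same in the other direction. Its log2 ratio was 1.21 in the stage 4 head and 3.64 in the mixed section, against -1.24 and -1.62 in the adult sections. Its level in the adult sections was 3321 and 4101 CPM in fast spots and 7827 and 12619 CPM in slow spots, against 166 CPM in fast spots and 71.7 CPM in slow spots of the stage 4 head. The difference between sections was not tested for either gene, since the stage 4 head is 1 section.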

How the results depend on the processing

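The direction of all 20 named genes held in all 340 recomputed values. These genes were chosen for the largest ratios, which no change of scale was large enough to turn. Taking no minimum of UMIs per spot or 500 moved no listed result. Below, values are log2 ratios, fast over slow, of gene lists unless a count is named. With F+S of 5 or more, the fast contractile list gave 1.55, glycolysis 0.87 and the respiratory chain -1.08. With F+S of 20 or more these were 1.43, 0.76 and -1.19, parvalbumins gave 2.97, and 24 of 24 genes compared in other sections kept their direction, as 24 of 24 did with a fast limit of 0.1. That limit gave -2.02 for the slow contractile list and -1.21 for the respiratory chain. With a slow limit of 0.75, 21 spots were slow, and the fast contractile, slow contractile, shared sarcomere, glycolysis, respiratory chain and parvalbumin lists gave 1.84, -2.0, 2.35, 1.09, -1.11 and 3.82. Without MYL2 in the rule 16 spots were slow, and the same lists but the respiratory chain gave 1.80, -1.69, 2.37, 1.01 and 3.77. The log2 ratio of the slow contractile list in the last bin of the slow share over the first was then 1.89, against 2.10. Without tnnt2b the fast and slow contractile, respiratory chain, parvalbumin and calcium handling lists gave 1.45, -1.83, -1.18, 3.14 and -0.80. Without TNNT1 the fast contractile list gave 1.55 and parvalbumins 3.12.

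Scaling moved most. Per shared sarcomere UMI, 8 genes were higher in fast spots and 1122 in slow spots, and the fast contractile (-0.68) and glycolysis (-1.37) lists turned round, while the slow contractile, respiratory chain, parvalbumin and calcium handling lists gave -4.11, -3.33, 0.85 and -2.84, and the bins gave 4.49. Without TPM1 in that scale, 15 and 869 genes were counted, glycolysis stayed reversed at -0.22, and the fast contractile, slow contractile, shared sarcomere, respiratory chain, parvalbumin and calcium handling lists gave 0.46, -2.96, 1.14, -2.19, 1.99 and -1.70, with 3.24 over the bins. Relative to the median gene, 134 and 72 genes were counted, the fast contractile, slow contractile, shared sarcomere, glycolysis, respiratory chain and parvalbumin lists gave 2.17, -1.25, 2.85, 1.49, -0.48 and 3.70, and calcium handling turned to 0.011. Relative to ribosomal protein genes, 149 and 62 genes were counted, the same lists gave 2.24, -1.18, 2.92, 1.56, -0.41 and 3.78, calcium handling turned to 0.083, and the bins gave 1.26.

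As a mean of spot CPM, the fast contractile, shared sarcomere, glycolysis and respiratory chain lists gave 1.38, 2.02, 0.51 and -1.08. Without the 10% of spots with most UMIs, the fast contractile, slow contractile, shared sarcomere, glycolysis and parvalbumin lists gave 1.31, -1.82, 2.07, 0.46 and 2.93. At 4-fold, 23 and 44 genes were counted. Added after seeing the data were 2 more settings. With the globin list and parvalbumins out of the totals, the fast contractile, glycolysis and respiratory chain lists gave 1.56, 0.87 and -1.09. HBE1, a globin gene outside that list, stayed in these totals. Among spots with at most 50000 CPM of the globin list, HBE1 not included, 19 were slow. There the fast contractile, slow contractile, respiratory chain, parvalbumin and calcium handling lists gave 1.43, -2.10, -1.31, 2.90 and -0.82, and the bins gave 2.28. The scale without TPM1 was also added then. The cause of each shift was not tested beyond what the setting itself changes.

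No paired analysis was possible because the stage 4 head is 1 section and shares at most 1 replicate number with any other group. Slow spots hold 195261 UMIs, so 0 UMIs there allows up to 15.4 CPM by the floor of 3 counts, and a gene with 1 UMI there has a loosely bounded ratio.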

Other observations

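Some genes outside the lists also stood apart, chosen after their values were seen. The LIM domain gene fhl1a had 242 CPM in fast spots and 1495 CPM in slow spots of the stage 4 head, and the troponin I gene tnni1c, slow by its name, had 3493 CPM in the slow spots with a pvalb6 UMI and 8725 CPM in those without.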
